A study of Homo sapiens with 8 samples.

Results

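The genes described here encode proteins of the spliceosome and the heterogeneous nuclear ribonucleoproteins, or are pseudogenes of such genes. They were taken by symbol alone: every gene whose symbol starts with HNRNP, SRSF, SNRNP, SF3A, SF3B, PRPF or U2AF, with SNRP followed by A to G or N, or with LSM followed by a number. A symbol of this kind stood beside an entry of the authors' deposited table for 94 genes. Of these, 76 had a kept probe, that is, one with a detection p-value under 0.01 on at least 4 of the 8 arrays, among 9196 named genes with a kept probe in all. The remaining members divide into 6 whose probe was not kept and 12 whose entry could not be tied to a probe. Of the 76 with a kept probe, 73 are protein-coding genes and the others are transcribed pseudogenes of HNRNP genes.

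The study asked which transcripts change when ZNF395, a zinc finger transcription factor, is knocked down in MDA-LM2 cells, a lung-metastatic derivative of the breast cancer line MDA-MB-231. All cells of both groups also carried a hairpin against TARBP2, an RNA-binding protein, so the background is MDA-LM2-shTARBP2 throughout. The knock-down cells received lentiviral shZNF395 (4 arrays) and the others lentiviral shControl (4 arrays), and total RNA was taken after 48 h for Illumina BeadChips. The series' design text calls the control cells mock-transfected, whereas the labels name a control hairpin. There is 1 cell line, and the labels do not say whether the 4 samples of a group were separate cultures or carried different hairpins, so p-values reflect only how far these particular samples varied, and that variation may be technical.

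Pre-mRNA splicing removes introns in a cycle run by small nuclear ribonucleoproteins. The U1 particle binds the 5′ splice site, U2AF and the U2 particle mark the 3′ splice site and branch point, and the U4/U6.U5 tri-snRNP then joins to form the catalytic centre. Sm proteins form a ring on most of these RNAs, LSM proteins form the ring on U6, SR proteins mostly promote the use of exons, and hnRNP proteins coat the nascent transcript and often repress it. Many of these genes adjust their own mRNA through alternative splicing coupled to decay, and their expression is generally high in growing cells.

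ZNF395 itself was read first, as a check of the labels. Signals here are background-corrected, quantile-normalized intensities on the log2 scale, and a change is the mean over shZNF395 arrays minus the mean over shControl arrays. The ZNF395 signal was 9.06, 8.99, 9.22 and 9.06 on the shZNF395 arrays, against 9.89, 9.81, 9.80 and 10.05 on the shControl arrays. The groups did not overlap, and the level in shZNF395 cells was 57.3% of that in shControl cells (log2 change −0.80 ± 0.077 SE, limma adjusted p = 1.01e-05, n = 4 each). Array 3 of each group lay nearer to the opposite group than its fellows did: its mean correlation with the other group was 0.9742 for shZNF395 3 and 0.9734 for shControl 3, against 0.9701 to 0.9724 for the other 6 arrays. Between 16834 and 17191 probes were detected on a shZNF395 array and between 16476 and 17406 on a shControl array. All 9 markers of the line were detected on every array. Among markers of other cell types, CD14, LAPTM5, CSF1R, ESAM, ROBO4 and COL1A1 were detected on all 8 arrays and PECAM1 on 6. The leukocyte markers PTPRC, TYROBP, ITGAM, CD3E and SPI1 and the endothelial markers CDH5 and VWF were detected on none.

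Most of the spliceosome and hnRNP genes that passed the test were lower in shZNF395 cells. Of the 76 genes, each read by its brightest kept probe, 42 fell and 2 rose, while 32 did not pass (limma across all 17184 kept probes, Benjamini-Hochberg adjusted p under 0.05). The background was high: of all 9196 named genes, 28.4% were lower and 29.8% were higher by the same rule, 58.2% in all, and 55.4% of kept probes passed in either direction. Of the members, 55.3% were lower and 2.63% higher. Their median was −0.22, that is 86.1% of the shControl level, against −0.0062 over all named genes. The change was below 0 in 66 of the 76, and 17 stood at −0.5 or below on the log2 scale, where 9.36% of all named genes did. The 2 groups of arrays did not overlap for 43 of the 76 members, close to the background of 53.1% of named genes and 49% of kept probes. Every counted member probe was detected on all 8 arrays. In these bulk samples fewer cells of a kind and less RNA per cell cannot be told apart.

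**Figure D1:**
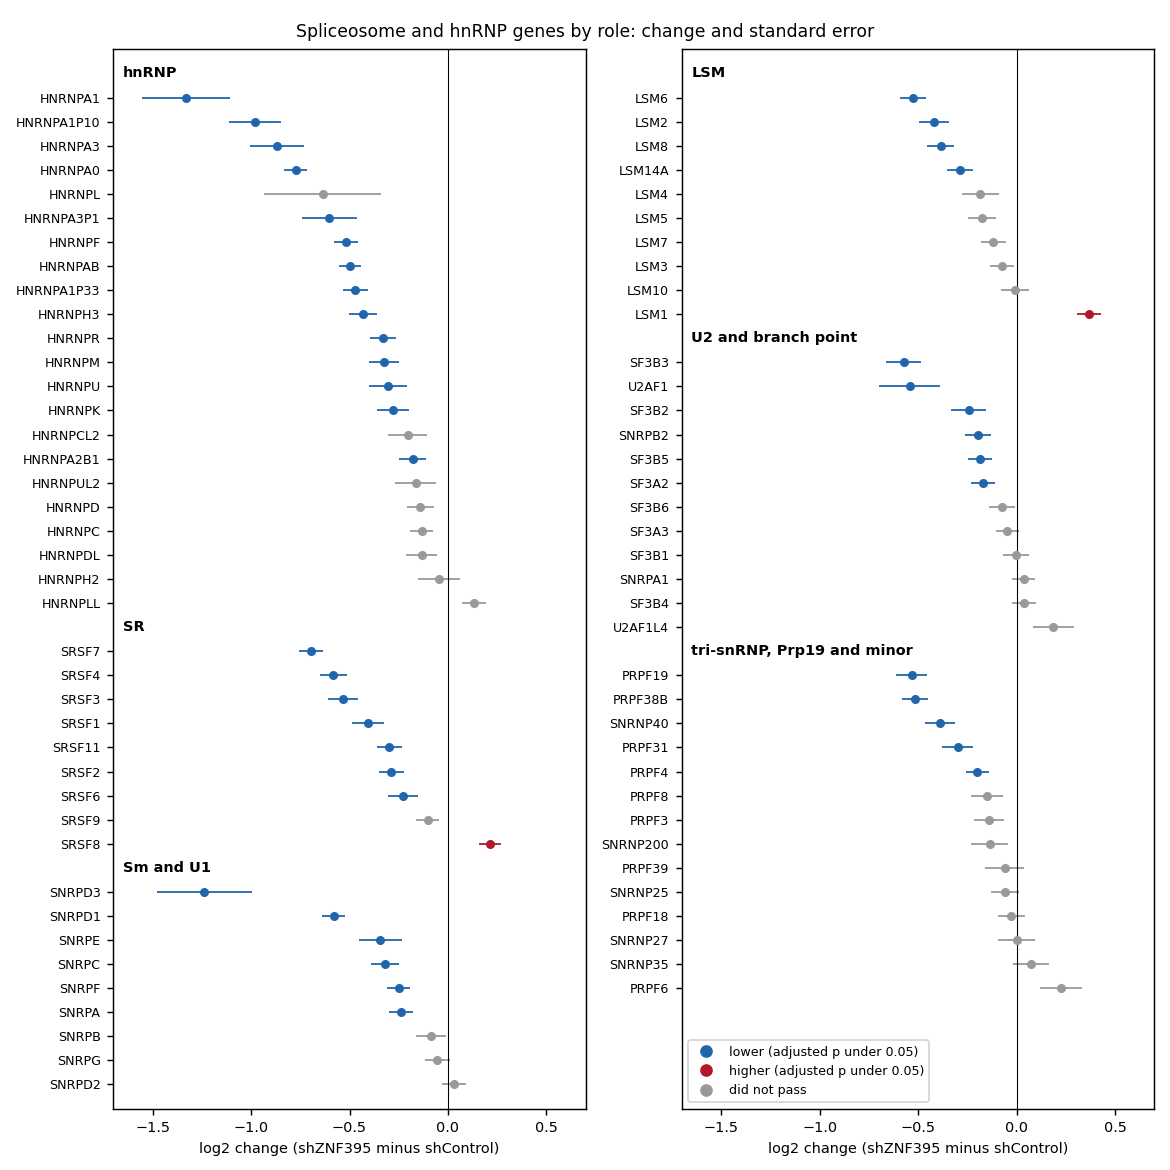
Change of each of the 76 genes by its brightest kept probe, in log2 units (shZNF395 minus shControl, horizontal axis), with the standard error of the fit as the bar, grouped by role. Blue points passed as lower (42 genes), red points as higher (LSM1 and SRSF8) and grey points did not pass (32 genes).

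The shift was present on every array. After centring each gene on its mean over the 8 arrays, the median deviation of the 76 members was −0.13, −0.11, −0.09 and −0.10 on the shZNF395 arrays and 0.08, 0.10, 0.14 and 0.13 on the shControl arrays. All shZNF395 arrays were below all shControl arrays. The same median over all named genes stayed between −0.0085 and 0.016 on all 8 arrays. By level, 20 of the 38 brighter members fell and 22 of the 38 dimmer ones, with median changes of −0.18 and −0.30. Of all named genes at those levels, 24.6% of the brighter and 29.4% of the dimmer ones were lower, with medians of 0.01 and −0.01.

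**Figure D2:**
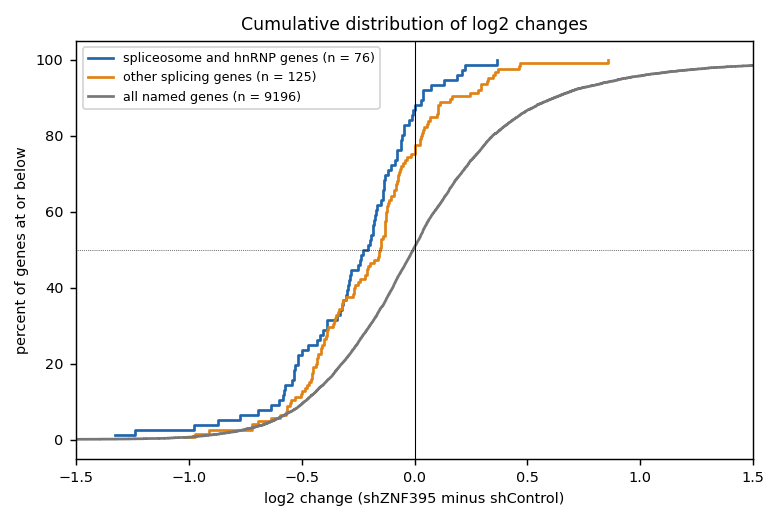
Cumulative share of genes (vertical axis, percent) at or below a log2 change (horizontal axis, shZNF395 minus shControl) for the 76 spliceosome and hnRNP genes, the 125 other splicing genes and all 9196 named genes. The members' line lies to the left of the line of all named genes and crosses 50% at −0.22, against −0.0062 for all named genes.

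The promoter windows of these genes were compared with those of the other named genes, since many members moved in 1 direction. RefSeq start-site windows (GRCh38.p14, 250 bases before to 50 bases after the start) matched 63 of the 76 members, 33 of them lower in shZNF395 cells. ZNF395 was described, under its other name HDBP2, as binding GCCGGCG in the huntingtin promoter. That motif, searched on both strands, stood in the window of 1 of the 33 lower members and 4 of the other 30, against 19.1% of the windows of tested named genes and 11% of all 27305 windows. The median GC content was 61.3% in the lower members and 65.3% in tested named genes. CCGGAAGT, a core that ETS factors bind, stood in 4 of the 33 and in 9 of the other 30, against 9.61% of tested named genes and 4.44% of all windows. CCAAT stood in 17 of the 33 and 15 of the other 30, against 37.5% of tested named genes and 35.7% of all windows. The E-box CACGTG stood in 3 of the 33 and 4 of the other 30, against 10.7% of tested named genes and 7.43% of all windows. TATAAA stood in 4 of the 33 and 2 of the other 30, against 5.51% of tested named genes and 12% of all windows, and AAGATGGCG, a motif of the factor YY1, in 2 of the 33 and 1 of the other 30, against 4.21% of tested named genes and 1.85% of all windows. None of the 6 motifs contains another, and a match describes letters, not a bound site. Each gene was read by 1 window, so other start sites of a gene were not searched. The windows of the 5 lower members that hold GCCGGCG or CCGGAAGT follow, on the strand of the gene. The match is in capitals, so that its position within the window can be read:
HNRNPF (GCCGGCG, read on the opposite strand; chr10:43408808-43409107, minus strand): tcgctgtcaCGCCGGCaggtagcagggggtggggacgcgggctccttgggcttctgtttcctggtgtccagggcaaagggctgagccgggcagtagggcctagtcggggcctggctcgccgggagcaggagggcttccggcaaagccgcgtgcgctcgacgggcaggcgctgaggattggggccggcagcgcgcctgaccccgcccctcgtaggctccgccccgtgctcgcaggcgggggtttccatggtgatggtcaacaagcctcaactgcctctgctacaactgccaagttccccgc
SRSF4 (CCGGAAGT, read on the opposite strand; chr1:29181851-29182150, minus strand): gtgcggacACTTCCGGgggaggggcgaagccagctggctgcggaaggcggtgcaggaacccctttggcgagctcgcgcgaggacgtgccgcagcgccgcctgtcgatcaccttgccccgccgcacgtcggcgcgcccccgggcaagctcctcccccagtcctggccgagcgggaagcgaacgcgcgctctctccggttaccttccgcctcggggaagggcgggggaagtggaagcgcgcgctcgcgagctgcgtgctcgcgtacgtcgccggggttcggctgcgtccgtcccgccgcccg
SNRPE (CCGGAAGT; chr1:203861597-203861896, plus strand): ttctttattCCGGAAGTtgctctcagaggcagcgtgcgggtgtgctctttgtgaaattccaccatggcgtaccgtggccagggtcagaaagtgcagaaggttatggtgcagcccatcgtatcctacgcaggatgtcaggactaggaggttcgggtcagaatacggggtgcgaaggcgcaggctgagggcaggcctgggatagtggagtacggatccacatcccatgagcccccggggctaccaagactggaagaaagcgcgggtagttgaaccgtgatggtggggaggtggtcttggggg
SF3B2 (CCGGAAGT; chr11:66052114-66052413, plus strand): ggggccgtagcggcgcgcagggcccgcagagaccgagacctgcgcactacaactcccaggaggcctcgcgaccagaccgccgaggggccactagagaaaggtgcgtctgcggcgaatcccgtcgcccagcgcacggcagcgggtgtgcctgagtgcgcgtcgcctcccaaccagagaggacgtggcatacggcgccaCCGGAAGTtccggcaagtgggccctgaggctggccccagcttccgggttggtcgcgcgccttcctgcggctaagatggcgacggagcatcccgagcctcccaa
SF3A2 (CCGGAAGT; chr19:2236574-2236873, plus strand): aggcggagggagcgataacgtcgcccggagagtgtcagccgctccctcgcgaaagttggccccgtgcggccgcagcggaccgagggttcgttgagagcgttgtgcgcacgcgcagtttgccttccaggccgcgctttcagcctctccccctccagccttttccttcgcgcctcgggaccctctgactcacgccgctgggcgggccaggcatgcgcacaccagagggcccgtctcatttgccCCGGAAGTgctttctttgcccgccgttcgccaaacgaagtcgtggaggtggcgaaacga

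The hnRNP genes had the lowest median of the 6 roles. Of 26 listed, 22 were measured: 14 fell (63.6%, against 28.4% of all named genes), none rose and 8 did not pass. The median change was −0.33. The pseudogenes HNRNPA1P10, HNRNPA1P33 and HNRNPA3P1 are among those that fell, and their probes may read the parent genes. A median without these pseudogenes was not computed. HNRNPA0, an hnRNP of the A/B family that binds AU-rich RNA, had the smallest p of the group. Its log2 signal was 10.25, 10.27, 10.33 and 10.36 on the shZNF395 arrays, against 11.01, 11.11, 11.06 and 11.12 on the shControl arrays. The groups were far apart relative to their spread (SD 0.05 in each), and the level in shZNF395 cells was 58.5% of that in shControl cells (log2 change −0.77 ± 0.059 SE, limma adjusted p = 1.85e-06).

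HNRNPAB, another member of the A/B family, was read by 3 kept probes, and all 3 fell. Its brightest probe gave 12.52, 12.52, 12.64 and 12.52 on the shZNF395 arrays, against 13.06, 13.03, 13.03 and 13.07 on the shControl arrays, a change of −0.50 (limma adjusted p = 3.88e-05). A dimmer probe for a second transcript entry changed by −0.90, with 9.66, 9.63, 9.87 and 9.55 on the shZNF395 arrays, against 10.59, 10.53, 10.53 and 10.65 on the shControl arrays. Neither pair of groups overlapped. HNRNPF, which binds G-rich runs near splice sites, had 7.22, 7.28, 7.17 and 7.12 on the shZNF395 arrays, against 7.76, 7.68, 7.71 and 7.71 on the shControl arrays (log2 change −0.52, limma adjusted p = 4e-05). All shZNF395 arrays were below all shControl arrays.

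HNRNPA1, the best known splicing repressor of the family, had the largest change among the members but also one of the widest spreads. Its brightest kept probe gave 6.72, 6.48, 7.64 and 6.64 on the shZNF395 arrays, against 8.36, 8.0, 7.96 and 8.47 on the shControl arrays. The groups did not overlap, although shZNF395 3 was well above its fellows. The change was −1.33 ± 0.224 (SE; limma adjusted p = 0.000504), and −1.59 without shZNF395 3. The other HNRNPA1 probe changed by −0.71, with 5.44, 5.81, 5.61 and 5.43 on the shZNF395 arrays, against 6.18, 6.29, 6.36 and 6.31 on the shControl arrays. On that probe shZNF395 3 did not stand out, and its signals were dim. The authors' deposited table gives −0.56 for the entry tied to the mean of both probes, so the size depends on the processing.

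Probes assigned to processed copies of these genes gave values of the same sign. HNRNPA1P10 had 11.02, 10.95, 11.60 and 11.01 on the shZNF395 arrays, against 12.18, 12.08, 11.99 and 12.24 on the shControl arrays (log2 change −0.98, limma adjusted p = 0.000108), and array shZNF395 3 was again the highest of its group. HNRNPA1P33 had 11.58, 11.55, 11.63 and 11.62 on the shZNF395 arrays, against 12.10, 12.06, 11.96 and 12.14 on the shControl arrays, and changed by −0.47. HNRNPA3 changed by −0.87 and its pseudogene HNRNPA3P1 by −0.60. These copies are nearly identical to their parent genes, so which transcript each probe captured is uncertain.

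HNRNPL, which binds CA-rich RNA, did not pass despite a change of −0.64. It had 9.26, 8.18, 9.35 and 9.22 on the shZNF395 arrays, against 9.87, 9.81, 8.83 and 10.04 on the shControl arrays. The groups overlapped, because shZNF395 2 and shControl 3 were each well below their fellows (limma adjusted p = 0.09). Without shControl 3 the change was −0.91 with a limma adjusted p of 0.00955, and without shZNF395 2 it was −0.36 with an adjusted p of 0.236, so the value rests on those 2 arrays. HNRNPD and HNRNPC were the brightest hnRNP genes that did not pass: their brightest probes changed by −0.14 (limma adjusted p = 0.102) and −0.13 (adjusted p = 0.0781). The other probe of each passed as lower, at −0.32 for HNRNPD and −0.35 for HNRNPC. HNRNPH3, HNRNPR, HNRNPM, HNRNPU, HNRNPK and HNRNPA2B1 fell by between 0.18 and 0.43 on the log2 scale. The HNRNPA2B1 groups overlapped on its brightest probe. Of its 3 kept probes, 2 passed as lower and 1 stood at 0.06 without passing (limma adjusted p = 0.545). The HNRNPA2B1 call was lost without any one of the arrays numbered 1, 2 and 4 of either group, and the HNRNPU call without shZNF395 1. HNRNPLL was the only measured hnRNP gene whose brightest probe was above 0, at 0.13, and it did not pass.

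**Figure D3:**
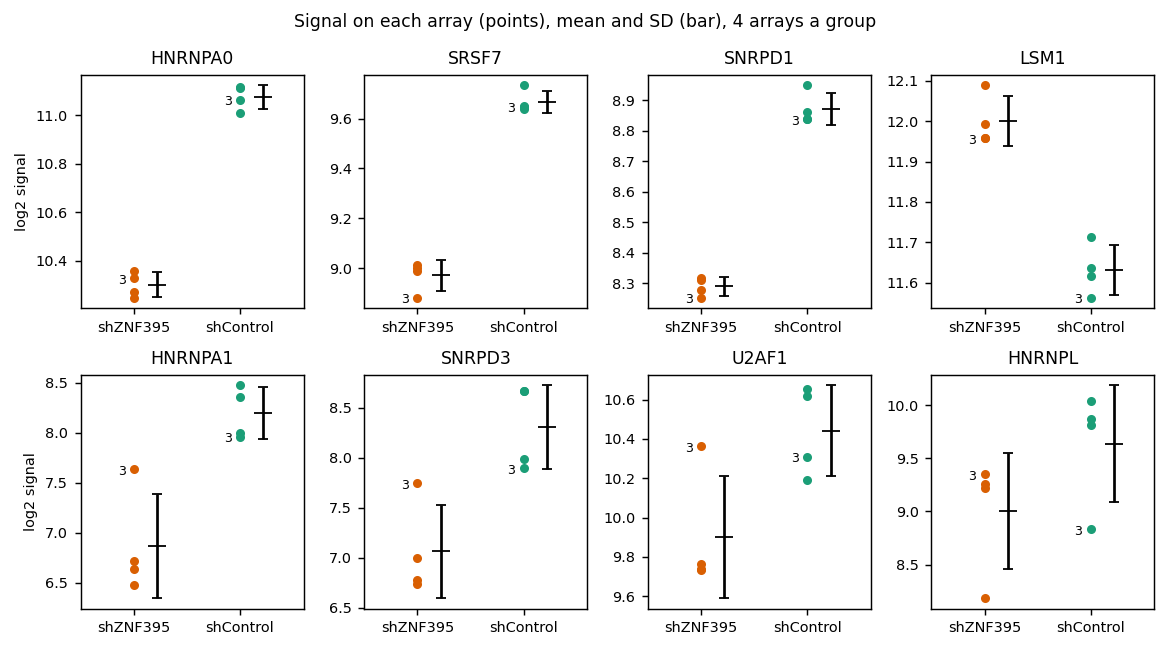
Log2 signal on each of the 4 shZNF395 arrays (left) and 4 shControl arrays (right) for 8 members, with the mean and SD as a bar and array 3 of each group marked. HNRNPA0, SRSF7, SNRPD1 and LSM1 have narrow groups that do not overlap; for HNRNPA1, SNRPD3 and U2AF1 array shZNF395 3 lies above its fellows, and for HNRNPL arrays shZNF395 2 and shControl 3 lie below theirs.

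SR proteins, which recognise exonic enhancers through RNA recognition motifs and recruit the spliceosome through their arginine-serine tails, had the largest share of lower genes among the 6 roles. Of 12 listed, 9 were measured: 7 fell (77.8%, against 28.4% of all named genes), 1 rose and 1 did not pass. The median change was −0.30. SRSF7 had 9.01, 9.0, 8.88 and 8.99 on the shZNF395 arrays, against 9.64, 9.73, 9.65 and 9.65 on the shControl arrays. The groups did not overlap and the level in shZNF395 cells was 61.7% of that in shControl cells (log2 change −0.70 ± 0.06 SE, limma adjusted p = 4.44e-06). SRSF4 had 10.58, 10.48, 10.55 and 10.58 on the shZNF395 arrays, against 11.28, 11.04, 11.14 and 11.07 on the shControl arrays, a change of −0.58 (limma adjusted p = 4.32e-05). SRSF3, the smallest SR protein and an adaptor for mRNA export, had 9.83, 9.80, 9.93 and 9.89 on the shZNF395 arrays, against 10.51, 10.37, 10.22 and 10.49 on the shControl arrays. It changed by −0.53 on that probe and by −0.68 on its other kept probe. None of these groups overlapped.

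SRSF1, the founding SR protein, had 11.87, 11.84, 12.00 and 11.62 on the shZNF395 arrays, against 12.23, 12.27, 12.15 and 12.29 on the shControl arrays (log2 change −0.40, limma adjusted p = 0.00168). SRSF11, SRSF2 and SRSF6 fell by 0.30, 0.29 and 0.23 on the log2 scale. SRSF6 passed only with shControl 3 among the arrays: without it the change was −0.17 and the adjusted p 0.0545. SRSF9 was the brightest SR gene and did not pass, with a change of −0.10 (limma adjusted p = 0.162) and overlapping groups. SRSF8, an intronless copy related to SRSF2, rose: it had 9.67, 9.73, 9.68 and 9.67 on the shZNF395 arrays, against 9.50, 9.45, 9.53 and 9.43 on the shControl arrays. All shZNF395 arrays were above all shControl arrays (log2 change 0.21, limma adjusted p = 0.00835).

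Among the Sm proteins and the U1-specific proteins, 9 of 11 listed genes were measured. Of these, 6 fell (66.7%, against 28.4% of all named genes), none rose and 3 did not pass. The median change was −0.25. SNRPD1, one of the proteins of the heptameric Sm ring, had 8.31, 8.32, 8.25 and 8.28 on the shZNF395 arrays, against 8.84, 8.86, 8.84 and 8.95 on the shControl arrays. Its level in shZNF395 cells was 66.9% of that in shControl cells, with no overlap (log2 change −0.58 ± 0.058 SE, limma adjusted p = 1.26e-05). Its ring partner SNRPD3 had 7.0, 6.78, 7.75 and 6.74 on the shZNF395 arrays, against 8.66, 7.99, 7.90 and 8.67 on the shControl arrays. Here the highest shZNF395 array and the lowest shControl array, both numbered 3, were close to each other, and the change of −1.24 had an SE of 0.241 (limma adjusted p = 0.0013). Without both arrays numbered 3 it was −1.60. The authors' deposited table gives −0.83 for SNRPD3, so this size too depends on the processing.

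SNRPC, a U1 protein that helps to grip the 5′ splice site, changed by −0.32 and the U1 protein SNRPA by −0.24. SNRPF and SNRPE, the remaining Sm genes that fell, changed by −0.25 and −0.34, and SNRPE lost its call without any one of shZNF395 1, shControl 2 and shControl 3. The brightest Sm genes did not move past the test. SNRPD2 had 13.66, 13.65, 13.63 and 13.59 on the shZNF395 arrays, against 13.57, 13.69, 13.61 and 13.54 on the shControl arrays, and SNRPG had 13.33, 13.50, 13.39 and 13.44 on the shZNF395 arrays, against 13.37, 13.51, 13.51 and 13.48 on the shControl arrays. Both pairs of groups overlapped, with changes of 0.03 and −0.05. A dim second probe of SNRPD2 gave −0.43 (limma adjusted p = 0.0221). It was detected on all 4 shControl arrays but on only 2 of the shZNF395 arrays.

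The LSM genes moved in both directions. Of 13 listed, 10 were measured: 4 fell (40%, against 28.4% of all named genes), 1 rose and 5 did not pass. The median change was −0.18. LSM6 and LSM2 encode subunits shared by the nuclear ring on U6 and the cytoplasmic ring that activates decapping. LSM6 had 9.42, 9.51, 9.54 and 9.57 on the shZNF395 arrays, against 10.07, 10.10, 9.92 and 10.07 on the shControl arrays (log2 change −0.53, limma adjusted p = 6.28e-05). LSM2 had 11.34, 11.51, 11.49 and 11.37 on the shZNF395 arrays, against 11.76, 11.97, 11.94 and 11.72 on the shControl arrays, a change of −0.42.

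The subunits that distinguish those 2 rings differed in sign. LSM8, which is specific to the nuclear ring, had 7.09, 7.05, 7.02 and 7.27 on the shZNF395 arrays, against 7.48, 7.56, 7.51 and 7.42 on the shControl arrays, and changed by −0.39 (limma adjusted p = 0.000867). LSM1, which takes its place in the cytoplasmic ring, had 11.99, 12.09, 11.96 and 11.96 on the shZNF395 arrays, against 11.62, 11.71, 11.56 and 11.64 on the shControl arrays. Its level in shZNF395 cells was 129% of that in shControl cells (log2 change 0.37 ± 0.062 SE, limma adjusted p = 0.000521). Neither pair of groups overlapped. LSM14A, a component of processing bodies and not of a ring, fell by 0.29 on the log2 scale. LSM4 and LSM3, shared ring subunits and the brightest that did not pass, changed by −0.18 (limma adjusted p = 0.121) and −0.08 (adjusted p = 0.31). LSM4 passed when shZNF395 3, the highest of its shZNF395 arrays, was left out (log2 change −0.27, limma adjusted p = 0.0108).

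Of the genes of the U2 particle and of branch-point recognition, 12 of 14 listed were measured. Of these, 6 fell (50%, against 28.4% of all named genes), none rose and 6 did not pass. The median change was −0.12. SF3B3, a scaffold of the SF3B complex, had 8.18, 8.37, 8.48 and 8.19 on the shZNF395 arrays, against 9.03, 8.74, 8.85 and 8.88 on the shControl arrays, with no overlap (log2 change −0.57, limma adjusted p = 0.000266). U2AF1, which reads the AG dinucleotide at the 3′ splice site, had 9.73, 9.76, 10.36 and 9.74 on the shZNF395 arrays, against 10.66, 10.19, 10.31 and 10.62 on the shControl arrays. The groups overlapped through shZNF395 3 alone. The change was −0.54 ± 0.154 (SE; limma adjusted p = 0.0114), and −0.70 without that array.

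SF3B5 and SNRPB2 fell by 0.19 each on the log2 scale (limma adjusted p = 0.0241 and 0.0268). These are small changes that did not hold throughout: the SF3B5 call was lost without any one of shZNF395 1, shZNF395 4 and shControl 1, and the SNRPB2 call without any one of shZNF395 1, shZNF395 4, shControl 2 and shControl 3. SF3B2 and SF3A2 fell by 0.24 and 0.17, with calls that also rested on single arrays. That of SF3B2 was lost without any one of shZNF395 1, 2 and 4 and shControl 1 and 4, and that of SF3A2 without any one of shZNF395 2 and 4 and shControl 2, 3 and 4. SF3B1, the subunit that contacts the branch point, had 10.46, 10.25, 10.32 and 10.46 on the shZNF395 arrays, against 10.41, 10.37, 10.38 and 10.36 on the shControl arrays, and its groups overlapped. SNRPA1 and SF3B4 were the brightest that did not pass, each with a change of 0.04.

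The genes of the tri-snRNP, the Prp19 complex and the minor spliceosome came last by share. Of 18 listed, 14 were measured: 5 fell, none rose and 9 did not pass. The lower share of 35.7% is near the 28.4% of all named genes. The median change was −0.14. PRPF19, the ubiquitin ligase that gives the Prp19 complex its name, had 9.61, 9.63, 9.77 and 9.56 on the shZNF395 arrays, against 10.07, 10.06, 10.27 and 10.30 on the shControl arrays. PRPF38B had 7.53, 7.44, 7.28 and 7.42 on the shZNF395 arrays, against 7.97, 7.95, 7.92 and 7.89 on the shControl arrays. Neither gene's groups overlapped, and the changes were −0.53 (limma adjusted p = 0.000194) and −0.51 (adjusted p = 8.7e-05).

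SNRNP40, a protein of the U5 particle, changed by −0.39 and −0.66 on its 2 kept probes, both lower. PRPF31, which bridges the U4/U6 and U5 particles, fell by 0.30 and PRPF4, a U4/U6 protein, by 0.20 on the log2 scale. PRPF8, the scaffold of the catalytic centre, had 11.27, 11.49, 11.26 and 11.34 on the shZNF395 arrays, against 11.39, 11.51, 11.66 and 11.41 on the shControl arrays. Its groups overlapped and its change of −0.15 did not pass (limma adjusted p = 0.137). PRPF3 stood at −0.14 (adjusted p = 0.135) and the U5 helicase gene SNRNP200 at −0.14 on its brighter probe. PRPF6 had the highest value of the group, 0.22, without passing.

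Members with more than 1 kept probe showed how far a call depended on the probe. There were 27 such genes, and in 11 of them all kept probes fell, in 11 some probes passed and others did not, in 5 none passed, and in none did probes pass in opposite directions. Over the 107 kept probes of members, 65 fell, 3 rose and 39 did not pass, with a median of −0.29. The third higher probe, beside those of LSM1 and SRSF8, was the dimmer one of SNRNP27, at 0.19 with overlapping groups. Of all kept probes, 30% were lower and 25.3% higher. In 21 of the 27 genes the dimmest kept probe had a more negative change than the brightest, against 61.8% of the 2078 named genes with several kept probes. HNRNPDL is an example: its brighter probe changed by −0.13 and did not pass, while the probe of a non-coding transcript entry of the gene had 8.91, 8.84, 8.85 and 9.0 on the shZNF395 arrays, against 9.43, 9.66, 9.59 and 9.47 on the shControl arrays. That probe changed by −0.63 with no overlap (limma adjusted p = 3.22e-05). Different transcripts of a gene may be read by its probes, and the probe sequences were not used here.

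**Figure D4:**
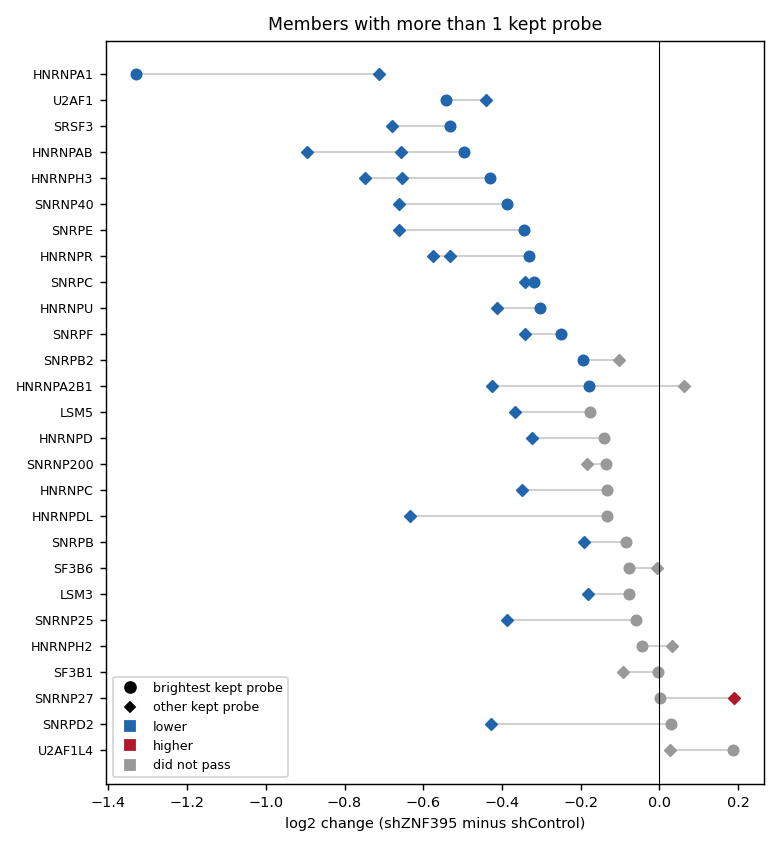
Log2 change (shZNF395 minus shControl, horizontal axis) of every kept probe of the 27 members with more than 1, in order of the brightest probe (circle); diamonds are the other probes. Blue probes passed as lower, red as higher and grey did not pass; no gene has both a blue and a red probe.

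Members without a kept probe are accounted for as follows. LSM14B and LSM11 just missed the detection rule, each being detected on 1 array, and SF3A1, SNRPN, SRSF12 and PRPF40B were detected on none. Just inside the rule were a second probe of U2AF1L4, detected on 4 arrays (log2 change 0.03), and the dim probes of SNRPD2 (−0.43) and SNRPE (−0.66). The dim SNRPD2 and SNRPE probes were each detected on 4 shControl arrays but 2 shZNF395 arrays. They thus met the rule through the group where they are high, which favours a lower call. Both are counted among the lower member probes and in the reading by dimmest probe. For the 12 members not tied to a probe, only the values of the authors' deposited table were at hand. In the authors' deposited table HNRNPH1 stood at −0.53, HNRNPUL1 at −0.22, SRSF10 at −0.12 and U2AF2 at −0.06. The authors' deposited table gave −0.01 for SNRNP70 and −0.04 for SRSF5. Over all 111 member entries of the authors' deposited table, 85.6% were below 0, against 53.2% of all entries, with a median of −0.18.

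Counts over the other genes of the splicing pathway differed between its parts. They are read against the 28.4% of named genes that were lower and the 29.8% that were higher. Of 148 further genes listed, 125 were measured: 54 fell (43.2%) and 12 rose (9.6%), and their median change was −0.15. Some lower genes were dim, with mean shZNF395 signals of 4.89 for SART1, 5.05 for QKI, 5.17 for TXNL4A and 5.21 for RBM8A. The LSM11 probe, which was not kept, stood at 5.04. Such probes may have met the detection rule through the shControl arrays, which favours a lower call. Their detection by group is not given here. Factors that assemble the snRNPs had 8 lower and 1 higher of 12 measured. GEMIN5, the subunit of the SMN complex that recognises snRNA, had 7.12, 7.25, 7.23 and 7.09 on the shZNF395 arrays, against 7.97, 8.10, 8.12 and 8.15 on the shControl arrays (log2 change −0.91, limma adjusted p = 1.37e-06). WDR77, a partner of the methyltransferase that modifies Sm proteins, changed by −0.72, while the methyltransferase gene itself, PRMT5, rose by 0.36 on its brightest probe with overlapping groups (adjusted p = 0.0084) and stood at −0.013 on its dimmest.

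Of 4 further genes measured for the minor spliceosome, which removes a small class of introns, none fell and 3 rose. Of all named genes, 28.4% were lower and 29.8% higher, and 4 genes are too few to set against those shares. The members SNRNP25 and SNRNP35, proteins of the same machinery counted with the tri-snRNP above, did not pass on their brightest probes, at −0.06 and 0.07, and a dimmer probe of SNRNP25 fell by 0.39 (limma adjusted p = 0.00338). ZCRB1 had 7.04, 6.91, 6.63 and 6.91 on the shZNF395 arrays, against 5.99, 5.92, 6.13 and 6.02 on the shControl arrays, with no overlap (log2 change 0.86, limma adjusted p = 1.72e-05). ZRSR2 rose by 0.25 on its brightest probe (adjusted p = 0.00869) and stood at 0.08 on its dimmest. RNPC3 rose by 0.33 with overlapping groups (adjusted p = 0.0451).

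Other tri-snRNP factors had 7 lower and 1 higher of 12, with PPIH at −0.43, AAR2 at −0.41 and SNU13 at 0.37. The 7 lower ones include the dim SART1 and TXNL4A. The Prp19-associated and catalytic-step factors had 6 lower and 2 higher of 19, a lower share of 31.6% that is near the background, led by ISY1 at −0.57 and CWC25 at −0.56, with XAB2 at 0.35 and SLU7 at 0.29. Early factors had 5 lower and none higher of 12, with DDX42 at −0.53 and DDX39A at −0.49. Splicing helicases had 2 lower and 1 higher of 8, a lower share of 25% that is also near it: DHX35 changed by −0.64, DDX41 by −0.46 and DHX8 by 0.32. Each of these named genes passed the same limma test.

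Exon junction and export factors had 7 lower and 1 higher of 16. THOC6, a subunit of the THO complex that couples transcription to export, had 7.51, 7.65, 7.78 and 7.59 on the shZNF395 arrays, against 8.66, 8.66, 8.58 and 8.72 on the shControl arrays (log2 change −1.02, limma adjusted p = 9.57e-07). All shZNF395 arrays were below all shControl arrays by more than the spread of either group. RBM8A of the exon junction core changed by −0.50 on a dim probe, with means of 5.21 in shZNF395 and 5.71 in shControl cells. SAP18 changed by 0.28. Kinases that act on SR proteins or on the polymerase had 4 lower and 1 higher of 9: CDK12 and DYRK1A changed by −0.45 each. CLK4 rose by 0.29, a call lost without any one of shZNF395 2, shZNF395 4, shControl 1 and shControl 2. Splicing regulators had 15 lower and 2 higher of 33. SON, a scaffold protein of nuclear speckles, changed by −0.72, while MBNL2, a muscleblind protein, rose by 0.47 and PTBP3, a polypyrimidine-tract binder, by 0.46.

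**Figure D5:**
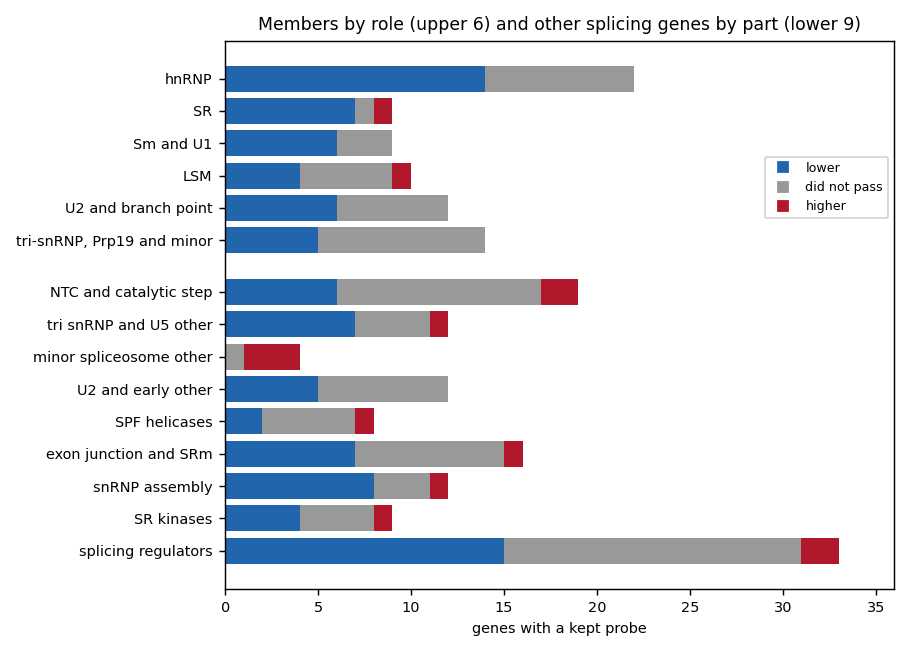
Number of genes with a kept probe (horizontal axis) that were lower (blue), did not pass (grey) or were higher (red) in shZNF395 cells, for the 6 roles of the spliceosome and hnRNP genes and the 9 parts of the other splicing list. Lower genes outnumber higher ones in every row but that of the 4 further minor spliceosome genes, where 3 were higher; SNRNP25 and SNRNP35, which did not pass, are counted in the tri-snRNP row.

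Proliferation genes moved with the members. Of 24 measured genes of DNA replication and mitosis, 23 fell and none rose, with a median log2 change of −0.60. Their summed signal was 35210 to 37200 units on the shZNF395 arrays and 49630 to 51730 units on the shControl arrays. The summed signal of the 9 markers of the line was 65550 to 66690 units on the shZNF395 arrays and 62070 to 63820 units on the shControl arrays. Of these 9, 3 passed as higher, 3 passed as lower and 3 did not pass. Those markers of other cell types that were detected also had higher sums in shZNF395 cells. Of 10 leukocyte markers listed, the sum of the 3 detected (CD14, LAPTM5 and CSF1R) was 1051 to 1302 units on the shZNF395 arrays and 780.0 to 908.5 units on the shControl arrays. Of 6 endothelial markers listed, the sum of the 3 detected (PECAM1, ESAM and ROBO4) was 2058 to 2273 units on the shZNF395 arrays and 1177 to 1289 units on the shControl arrays. Of 6 fibroblast markers listed, COL1A1 alone was kept, with 337.0 to 351.1 units on the shZNF395 arrays and 264.5 to 310.2 units on the shControl arrays. The part of these differences in the members' changes was not tested.

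Leaving out the arrays that leaned towards the opposite group changed which members passed more than how many did. Without both arrays numbered 3, 39 members were lower and 3 were higher. The share of all named genes that passed in that fit was not computed. HNRNPU, SF3A2, SF3B5, SNRPB2, SNRPE and SRSF6 then no longer passed as lower (limma adjusted p between 0.0534 and 0.0975), while HNRNPL, LSM4 and LSM7 passed as lower and U2AF1L4 as higher. Of the 42 lower members, 34 passed in all 8 fits that left out 1 array, and both higher members did.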

How the data were processed

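The authors deposited non-normalized BeadChip intensity values with a detection p-value per probe and array, a second table of processed intensity values, and a table of log2 fold changes by RefSeq entry, per the file headers. The submitters' processing notes name lumi with no version. Array annotation was not used here. Probes were tied to entries by computation: the deposited log2 fold change of an entry equals a difference of group means of transformed processed intensity, and 33131 of 39747 entries matched 1 probe (14 after shifting the values, mean of 20 shifts). A further 1819 matched the mean of 2 kept probes. Chance would give 44.1 of these as estimated from the density of pairs. Shifted values gave 55 in the first pass, before competing pairs were removed (mean of 10 shifts). A symbol was thus found for 67.1% of 17184 kept probes.

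Intensities were background-corrected by normexp with negative controls inferred from detection p-values (offset 16), quantile-normalized and log2-transformed in limma 3.58.1 (R 4.3.3), and tested with lmFit and eBayes, two-sided, adjusted over all kept probes. Scripts were tested on simulated data. The number of arrays limits the precision. The 2 groups share replicate numbers, but same-numbered arrays did not deviate together (correlations −0.11, 0.01, −0.42 and −0.09), so no block was used. Between arrays of unlike number the correlations ran from −0.29 (shZNF395 2 with shControl 4) to 0.43 (shZNF395 2 with shControl 3). Their source was not tested. Within each role, the text names up to 4 genes per direction with the smallest p and the 2 brightest that did not pass, and up to 2 per direction in each part of the other list; further members were picked after their values were seen. Members and lists were chosen with earlier results of these data known. Alternatives varied background, normalization, detection rule, probe choice, threshold, moderation, weights and arrays. PRPF4B, now PRP4K in RefSeq, was not counted. RefSeq names and promoter windows are of GRCh38.p14; a build for the array was not given in the sources used here. Some genes that the rules would name are not reported here.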

Additional observations from a re-analysis of the deposited data

Results flagged for a closer look

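In each group of 4 arrays, the highest or lowest value was compared with its nearest neighbour by Dixon's criterion, over 208 groups of the genes described. It marked 14 groups, 6.73% of those examined, and chance marks about 1 in 20. Array shZNF395 3 accounts for 8 of the 14, and shZNF395 1, shZNF395 4 and shControl 4 for none. On shZNF395 3, HNRNPA1P10 stood apart at 11.60 (10.95 to 11.02 on its fellows), U2AF1 at 10.36 (9.73 to 9.76), HNRNPAB at 12.64 (12.52 on each fellow), PRPF4 at 11.23 (11.11 to 11.12), SNRPA1 at 12.27 (12.18 to 12.19) and DDX42 at 10.08 (9.73 to 9.74), all above their fellows. SRSF6 at 12.23 (12.32 to 12.34) and DHX8 at 7.05 (7.36 to 7.39) were below theirs on that array.

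On shZNF395 2, HNRNPL was low at 8.18 (9.22 to 9.35 on its fellows) and SRSF8 was high at 9.73 (9.67 to 9.68). Among shControl arrays, HNRNPCL2 was high on shControl 1 at 7.29 (7.19 to 7.20) and SNRPG low on it at 13.37 (13.48 to 13.51). SRSF7 was high on shControl 2 at 9.73 (9.64 to 9.65), and LSM6 low on shControl 3 at 9.92 (10.07 to 10.10).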

How the results depend on the processing

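Across the 23 alternatives, between 21 and 49 members were lower and between 1 and 4 higher. The share of all named genes that passed was computed for the main fit only. The counts of the alternatives therefore have no background of their own, and whether the members' excess over it held there was not tested. Limma's treat test against a change of 0.2 left 21 lower and 1 higher among the members and 32 lower and 3 higher among the other splicing genes. Cyclic loess gave 4 higher members. Reading each gene by its dimmest kept probe moved the members' median to −0.30, with 49 lower. The cause of these shifts was not tested. SNRPD2 changed sign by its dimmest probe (−0.43), by the mean of its probes (−0.20) and without normalization between arrays (−0.036), and PRMT5 by its dimmest probe (−0.013). U2AF1 did not pass without moderation (adjusted p = 0.0582). Leaving out each array in turn gave 37 to 43 lower and 2 to 3 higher members with medians from −0.24 to −0.21, 51 to 57 lower and 10 to 13 higher other splicing genes, and −0.85 to −0.75 for ZNF395. Same-numbered arrays share only a number: with the replicate block in the fit, 36 members were lower and 2 higher, and 52 other splicing genes lower and 11 higher. Of the 42 lower members, 21 passed under all 23 alternatives. Dim probes near background limit the size that can be read for SNRPE and for the second probes of SNRPD2 and HNRNPA1. The same holds for SART1, QKI, TXNL4A and RBM8A among the other splicing genes.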
